A study of Capra hircus with 9 samples.

Results

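The genes described here encode the protein components of the cytosolic ribosome. They were chosen by symbol alone: RPL or RPS followed by a number, with RPSA, RPLP0, RPLP1 and RPLP2, leaving out mitochondrial ribosomal proteins, S6 kinases and copies listed only under a LOC symbol. The rule found 81 genes of 21234, 32 of the small and 49 of the large subunit. Levels were measured by RNA-seq of ribosomal RNA-depleted, strand-specific libraries from the submandibular glands of healthy female Lubo goats kept under the same conditions. There were 3 goats aged 1 month, 3 aged 12 months and 3 aged 24 months, 1 library per goat. All 9 were fasted and anaesthetised with xylazine before slaughter, and the groups differed by age alone in the labels.

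A ribosome consists of a small subunit, which reads the mRNA, and a large subunit, which joins the amino acids, and each holds 1 copy of most of its proteins. The genes for these proteins are usually expressed in step, and most of their mRNAs begin with a terminal oligopyrimidine (TOP) tract through which the mTOR pathway controls their translation. The submandibular gland secretes much protein into saliva, so its acinar cells make heavy use of the translation machinery.

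The total expected count was from 1.13e+07 to 1.75e+07 per library at 1 month, from 1.78e+07 to 2.05e+07 at 12 months and from 2.15e+07 to 2.41e+07 at 24 months, counting transcripts with a gene symbol. CPM values were computed on TMM-scaled library sizes, on which 3 counts were worth 0.149 to 0.197 CPM. The tissue label was checked on markers, and 1-month replicate 2 stood apart. Its level of AQP5, the water channel of acinar cells, was 0.508 CPM against 224 and 133 CPM in the other 1-month libraries and 482 CPM or more in every older one, whereas RAG1, the recombinase of immature lymphocytes, was at 4363 CPM. All 10 thymocyte and T cell markers summed to between 1614 and 11918 CPM at 1 month, highest in replicate 2, to between 7.77 and 15.0 CPM at 12 months and to between 20.5 and 24.2 CPM at 24 months. The 8 salivary epithelium markers summed to 586 to 1931 CPM, 9879 to 14350 CPM and 10646 to 27473 CPM, lowest in replicate 2. FOXN1, which defines thymic epithelium, was at 82.6 CPM in that library, at 16.2 and 5.75 CPM in 1-month replicates 1 and 3, and at 0.106 CPM or less at the older ages, where 3 of the 4 thymic epithelium markers had 3 counts or fewer in every library. Counts on the 1-month group, and the members they turn on, are therefore also given without replicate 2. Leaving it out did not remove the difference in these markers: all 10 thymocyte and T cell markers and all 4 thymic epithelium markers were still called lower at 12 months (median log2 -6.98 and -7.78) and at 24 months (-6.61 and -6.47, edgeR). The part of these markers in the results was not tested.

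Of the 81 genes, 77 were detected well enough to be tested in each comparison. The others were RPL10L, a retrogene known from testis, and RPL22L1, a paralogue of RPL22, both at 0 counts in all 9 libraries, RPL3L, the striated muscle paralogue of RPL3, with at most 14.0 counts in a library, and RPL17, with 36.6 counts in all, 34.6 of them in 1-month replicate 3. For RPL17 and RPL22L1 the reads lay under LOC symbols with the same product: LOC100861018 was at 302 to 903 CPM and LOC102181343 at 9.07 to 21.3 CPM. RPL34 was likewise represented by LOC102186381, at 118 to 231 CPM.

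As a family, the ribosomal protein genes took 3.13% to 4.05% of the total count of a library, and whether they rose or fell with age depended on what they were measured against. Their share of the total count was 4.02%, 4.05% and 4.03% in the 1-month libraries, 3.95%, 3.13% and 4.01% at 12 months and 3.43%, 4.05% and 3.46% at 24 months. As means this was 4.03% ± 0.0151, 3.69% ± 0.494 and 3.64% ± 0.348 (SD, n = 3 each). The totals differed in composition: the 10 most abundant genes took 5.29% to 11.0% of a library at 1 month, 22.9% to 33.4% at 12 months and 24.9% to 36.7% at 24 months. With library sizes adjusted for composition (TMM), the family made up 2.98%, 3.83% and 2.99% at 1 month, 4.09%, 3.61% and 3.93% at 12 months and 4.16%, 4.85% and 3.93% at 24 months. On that scale 1-month replicates 1 and 3 lay below every older library, and replicate 2 lay among them. Against the total without the 100 most abundant other genes the shares were 4.82% ± 0.246, 6.09% ± 0.376 and 6.55% ± 0.916 (SD, n = 3 each), with no overlap between 1 month and the older ages. These 100 genes were picked by their mean share over the same 9 libraries. Leaving them out reduced the older totals more than the 1-month totals. The higher older shares on this measure are thus partly set by that choice. In bulk tissue, fewer cells of a type and less RNA per cell cannot be told apart.

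**Figure D1:**
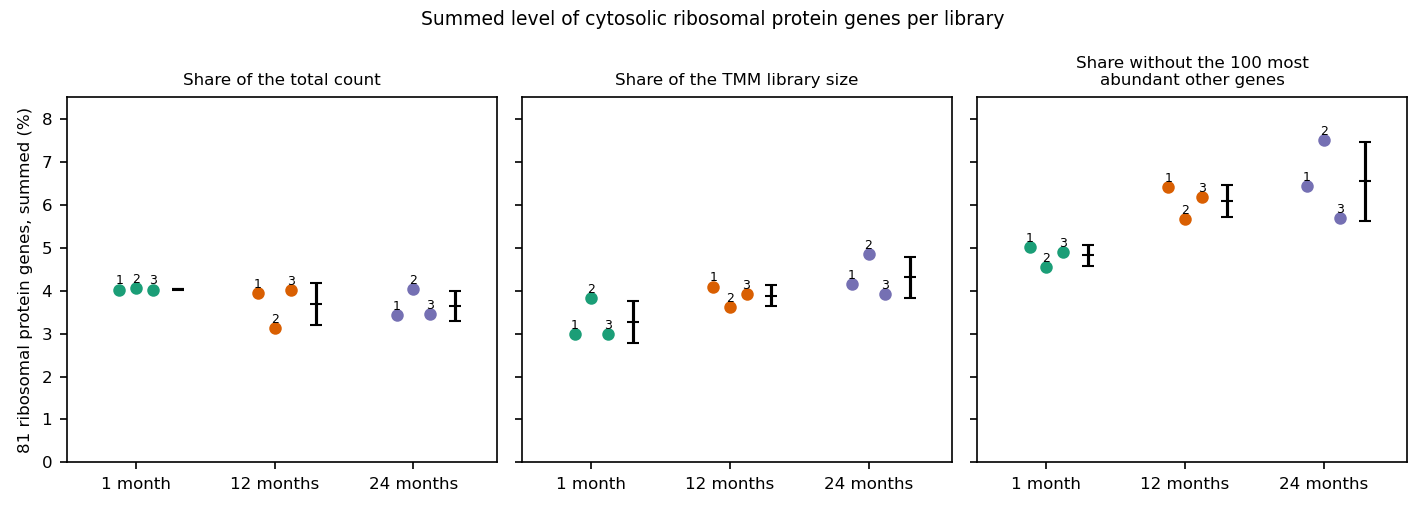
Summed share (%) of the 81 ribosomal protein genes in each of the 9 libraries, by age, against 3 denominators. Points are libraries numbered by replicate, and the bar beside them is the mean ± SD (n = 3); the 1-month mean is the highest of the 3 against the total count (4.03%) and the lowest against the other denominators.

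Between 1 and 12 months a single member passed the test. RPS27L, a paralogue of RPS27 that p53 can induce, was at 12.0, 11.0 and 11.6 CPM at 1 month and at 24.5, 25.0 and 25.1 CPM at 12 months. The replicates of each age were close together and the ages far apart. Its log2 fold change was 1.16 ± 0.24 (SE; adjusted p = 0.0210, edgeR's quasi-likelihood test with Benjamini-Hochberg adjustment), the highest of the 77. That call was lost when any library other than 1-month replicate 2 was left out (adjusted p 0.0540 to 0.110), although the log2 fold change stayed between 1.08 and 1.20, and it was lost with scaling to the total count alone (0.70, adjusted p = 0.114), with RefSeq transcripts alone (1.05, adjusted p = 0.0536) and with the replicate block (1.17, adjusted p = 0.103). Leaving out a 12-month library (replicate 1, 2 or 3) left 0, 67 and 110 calls over all genes. Among all genes tested 6.52% were higher at 12 months and 11.7% were lower, against 1 and 0 of the 77 members. At an unadjusted p under 0.05 there were 7 members higher and 0 lower, where 17.7% and 20.2% of all genes were, and by DESeq2's Wald test 4 higher (RPS27L, RPLP1, RPL4 and RPS27A) and 0 lower, where 10.1% and 15.4% of all genes were. The median log2 fold change of the members was 0.24, against -0.02 over all genes tested, and it was -0.22 against -0.48 when libraries were scaled to their total count alone. Fitted fold changes were above 0 for 60 members and below 0 for 17, and 74 of the 77 lay within a 2-fold change. No member had an adjusted p under 0.05 together with an absolute log2 fold change over 2, which 11.5% of all genes had.

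RPL39, RPLP1, RPSA and RPL6 followed RPS27L in the order of fitted change. RPL39, a very small protein at the exit tunnel of the large subunit, was at 35.6, 14.4 and 37.7 CPM at 1 month and at 55.2, 61.0 and 61.9 CPM at 12 months (log2 1.10 ± 0.37, adjusted p = 0.0799, edgeR). RPLP1, an acidic protein of the stalk that receives elongation factors, was at 406, 567 and 416 CPM and then at 865, 940.1 and 932 CPM (log2 1.03 ± 0.32, adjusted p = 0.0642, edgeR). Both had no overlap between the ages, and neither passed the test with all 6 libraries. RPL39 passed it without 1-month replicate 2, its lowest library, with a smaller change (0.70 ± 0.12, adjusted p = 0.0066, edgeR), and by edgeR's exact test with all 6 (adjusted p = 0.0488). RPSA, a protein of the small subunit also known as the laminin receptor, has a copy under a LOC symbol. It was at 292, 997 and 525 CPM and then at 1060.4, 1186 and 1214 CPM (log2 0.97 ± 0.51, adjusted p = 0.198, edgeR). RPL6, a large subunit protein, was at 777, 364 and 634 CPM and then at 1019.7, 1042 and 1057 CPM (log2 0.89 ± 0.36, adjusted p = 0.124, edgeR). RPSA and RPL6 did not overlap either, but their 1-month replicates were far apart, with replicate 2 the highest for RPSA and the lowest for RPL6, which without it gave 0.56 ± 0.15 (adjusted p = 0.0266, edgeR). The lowest fitted changes were those of RPL18, RPL38, RPL7L1, RPL36 and RPS16, between -0.60 and -0.36 with SEs of 0.31 to 0.64. RPL18 was at 357, 995 and 351 CPM and then at 393, 326 and 379.9 CPM, and RPS16 at 295, 685 and 327 CPM and then at 358, 294 and 340.4 CPM. In 4 of these 5, RPL7L1 being the exception, the 1-month libraries other than replicate 2 overlapped or lay below the 12-month ones, and without that replicate the fitted changes of these 4 were above 0 (0.05 for RPL18, 0.21 for RPL38, 0.65 for RPL36 and 0.09 for RPS16). Counting members without any overlap, 31 of 77 (40.3%) were higher at 12 months, where 26.7% of all genes were, and 1 of 77, RPL7L1, was lower, where 26.9% of all genes were. Against the other 1-month libraries alone, a count added after the data were seen, 54 were higher without overlap and 1 lower, where 33.6% and 34.6% of all genes were.

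Leaving out 1-month replicate 2 changed the count most. Then 29 of 77 members were higher at 12 months and 0 lower (edgeR's quasi-likelihood test with Benjamini-Hochberg adjustment), while 21.4% of all genes were higher and 22.2% lower. All 10 thymocyte and T cell and all 4 thymic epithelium markers were lower in the same fit. Of the 29, 10 belonged to the small and 19 to the large subunit. RPSA rose by log2 1.50 ± 0.27 (adjusted p = 0.00708), RPLP1 by 1.16 ± 0.13 (adjusted p = 0.00181), RPS28 by 0.82 ± 0.17 (adjusted p = 0.0115) and RPL14 by 0.80 ± 0.17 (adjusted p = 0.0121). The median over the members was 0.36. RPLP0, the core of the stalk, and RPL36 turned from -0.02 and -0.43 with all 6 libraries to 0.48 (adjusted p = 0.0473) and 0.65 (adjusted p = 0.0203) without that library. With all other 8 libraries in one fit, an alternative chosen after seeing the data, 4 members were higher, RPSA, RPLP1, RPS27L and RPL14, and 0 lower, where 12.1% and 15.2% of all genes were.

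**Figure D2:**
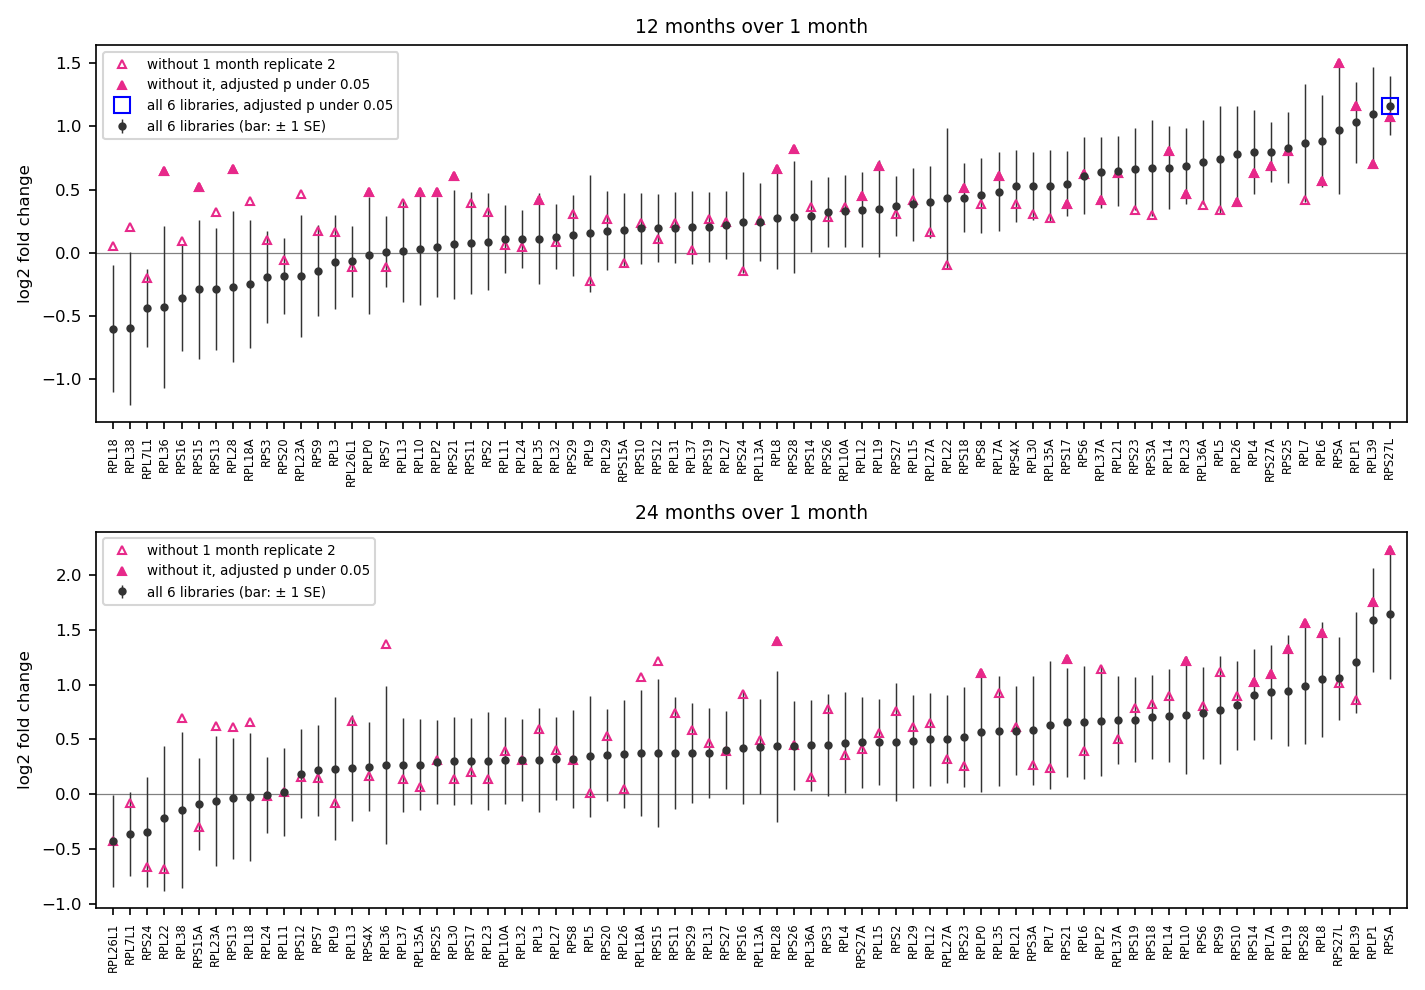
Log2 fold change of 76 of the 77 tested members at 12 months (upper panel) and 24 months (lower panel) over 1 month, ordered by the fit of all 6 libraries (points, bars ± 1 SE), with the fit without 1-month replicate 2 as triangles, filled where the adjusted p was under 0.05. RPS27L alone was called with all 6 libraries, and 29 and 11 members were called without that replicate.

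Between 1 and 24 months no member passed the test with all 6 libraries, by edgeR's quasi-likelihood test with Benjamini-Hochberg adjustment, while 7.1% of all genes were called higher and 10.4% lower. None also had an absolute log2 fold change over 2, which 13.2% of all genes had. At an unadjusted p under 0.05 there were 4 members higher and 0 lower, where 16.3% and 18% of all genes were. By DESeq2's Wald test 2 members (RPLP1 and RPSA) were higher and 1 was lower, RPL17 with its 36.6 counts, where 9.07% and 13% of all genes were. RPLP1 was nearest to the threshold with these 6 libraries. It was at 975, 1657 and 1213 CPM at 24 months, above each of its 1-month values (log2 1.59 ± 0.48, adjusted p = 0.0522, edgeR). RPSA was at 1394, 2156 and 1737 CPM, also above each of its 1-month values (log2 1.65 ± 0.60, adjusted p = 0.0894, edgeR). Both passed in the fit of all 9 libraries (RPLP1 1.47, adjusted p = 0.0101, and RPSA 1.54, adjusted p = 0.0298, edgeR) and by edgeR's exact test (adjusted p = 0.0161 and 0.0389). RPL39 (70.6, 74.2 and 39.8 CPM; log2 1.21 ± 0.46, adjusted p = 0.104, edgeR) and RPS27L (20.1, 28.4 and 17.7 CPM; log2 1.06 ± 0.38, adjusted p = 0.0903, edgeR) came next among the non-overlapping members, and were not called in the 5-library fit without 1-month replicate 2 (0.86 ± 0.37, adjusted p = 0.110, and 1.01 ± 0.37, adjusted p = 0.0692, edgeR). RPS27L was called in the fit of all other 8 libraries without it (0.91 ± 0.27, adjusted p = 0.0248, edgeR) and in the fit of all 9 (0.93 ± 0.27, adjusted p = 0.0299, edgeR). For RPL39 and RPS27L the 24-month replicates were spread more widely than those at 12 months. RPL8, a large subunit protein near the centre where peptide bonds are made, was at 369, 790.4 and 414 CPM at 1 month and at 658, 1167 and 1192 CPM at 24 months, and replicate 2 at 1 month overlapped the older range (log2 1.05 ± 0.53, adjusted p = 0.198, edgeR). The lowest fitted changes were those of RPL26L1, RPL7L1, RPS24, RPL22 and RPL38, between -0.43 and -0.15, none of them called. With its LOC copies added RPS24 was at -0.11. Leaving out 1-month replicate 2 turned RPL38 to 0.70 ± 0.55, brought RPL7L1 to -0.08 ± 0.31, moved RPL22 to -0.69 ± 0.48 and RPS24 to -0.67 ± 0.41, and left RPL26L1 at -0.43 ± 0.42, again with none called.

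The median log2 fold change of the members was 0.42, against -0.01 over all genes, and became -0.24 against -0.68 with scaling to the total count alone. Members higher without overlap numbered 16 of 77 (20.8%), close to the 20.3% of all genes, and 1, RPL26L1, was lower without overlap, where 23.4% of all genes were. Against 1-month replicates 1 and 3 alone, 39 were higher without overlap and 3 lower, where 28.1% and 31.8% of all genes were. Without 1-month replicate 2, 11 members were higher and 0 lower, beside 14.1% and 14.2% of all genes. These were RPSA (log2 2.23 ± 0.42), RPLP1 (1.76 ± 0.38), RPS28, RPL8, RPL28, RPL19, RPS21, RPL10, RPLP0, RPL7A and RPS14, and 10 of the 11 were also among the 29 called at 12 months. Both comparisons share the 1-month libraries. In the fit of all other 8 libraries 22 members were higher and 0 lower, where 17.9% and 20% of all genes were, and the median was 0.59 without replicate 2.

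Between 12 and 24 months 0 of 77 members and 0 of 14081 genes were called (0% in either direction, edgeR's quasi-likelihood test with Benjamini-Hochberg adjustment). DESeq2's Wald test also called 0 members, where it called 0.0806% of all genes higher and 0.0403% lower. At an unadjusted p under 0.05, 12 members were higher and 0 lower, where 8.39% and 2.65% of all genes were. The median log2 fold change was 0.12, against 0.04 over all genes, and -0.10 against -0.17 with scaling to the total count alone. RPS9, a small subunit protein, had the highest fitted change: 280.1, 228 and 273 CPM at 12 months and 294, 594 and 509 CPM at 24 months (log2 0.89 ± 0.29, adjusted p = 0.426, edgeR). RPS16 (log2 0.76 ± 0.26), at 379, 591 and 661 CPM at 24 months, and RPL8 (0.75 ± 0.28) followed. The 24-month replicate 1 of each lay near the 12-month values and replicates 2 and 3 well above them. RPS28 was at 105, 88.6 and 104 CPM and then at 94.1, 172 and 196 CPM (log2 0.68 ± 0.29). RPL22 had the lowest fitted change, -0.65 ± 0.39, from 44.5, 45.9 and 42.7 CPM to 48.3, 19.0 and 15.5 CPM. RPL26, which sits near the exit tunnel, went from 471, 442 and 459 CPM to 499, 266 and 234 CPM (-0.42 ± 0.30). Here too replicate 1 stayed at the 12-month level and the others lay lower. RPS24 (-0.59 ± 0.34), RPS25 (-0.56 ± 0.29) and RPL5 (-0.39 ± 0.33) were the other members of lowest fitted change, and all of these had adjusted p-values of 0.426 to 0.534 (edgeR). For RPS25 this held without its LOC copies only: with them it was at -0.31, and RPL23, at -0.39, lay below it. Members higher without overlap numbered 14 of 77 (18.2%), where 7.92% of all genes were, and 1, RPL23, was lower, where 7.49% of all genes were.

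Without 24-month replicate 1 the same comparison called 24 members higher and 4 lower, beside 17.9% and 14.5% of all genes, and leaving out any other library called 0. The 4 were RPL22 (log2 -1.31 ± 0.18), RPL5 (-0.86 ± 0.19), RPL26 (-0.82 ± 0.17) and RPL7 (-0.72 ± 0.21). RPS9 (1.13 ± 0.18), RPL36 (1.01 ± 0.17), RPL28 (1.00 ± 0.17) and RPS15 (0.98 ± 0.20) were highest of the 24. Members of the family thus differed in opposite directions between those libraries.

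An opposition of this kind also led the variation within the family once its common level was removed. Each member's log2 CPM was set against the median of the 77 in the same library and centred on its mean, so that the level of the family as a whole was removed. Weights of both signs follow largely from this step and are no separate evidence of opposition. The first principal component of these profiles held 70.2% of the variance, and the second 15.0%. Its scores were 5.62 in 1-month replicate 2, 4.05 in 24-month replicate 3 and 2.39 in 24-month replicate 2, and between -2.64 and -1.56 in the other 6 libraries. The high scores were thus found at 1 month and at 24 months, in 3 libraries that age does not separate from the rest. Across the 9 libraries the members ranged over 0.277 to 2.69 log2 units around the family median (median 1.03), and 38 of 77 ranged over less than 1.

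RPL36, RPL28, RPS15, RPL38 and RPL18 had the highest weights on that component. RPL36, a protein of the large subunit, was at 61.0, 304 and 77.5 CPM at 1 month, 119, 103 and 101 CPM at 12 months and 75.2, 232 and 189 CPM at 24 months. RPL28, also of the large subunit, was at 248, 926 and 238 CPM, then at 399.7, 356 and 396 CPM, then at 301, 754 and 731 CPM. In both genes the 3 libraries with high scores held the highest levels of all 9. RPL38, a large subunit protein known for its part in the translation of Hox mRNAs in mice, was at 85.6, 478 and 201 CPM, then at 169, 160.3 and 165 CPM, then at 98.3, 342 and 200.3 CPM. Its 24-month replicate 3 did not exceed 1-month replicate 3. RPS15, a small subunit protein, was at 168, 622 and 204 CPM, then at 292, 250.1 and 255 CPM, then at 184, 587 and 426 CPM, again with the same 3 libraries highest.

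At the other end stood RPL22, RPL7, RPL9, RPL5 and RPS24, the last of which, like RPL9, may divide its reads with a copy. RPL22, which binds RNA and is needed for the development of alpha-beta T cells in mice, was at 50.5, 9.15 and 44.9 CPM at 1 month, with its 12- and 24-month values given above. Its log2 change from 1 to 12 months was 0.43 ± 0.56 with all 6 libraries and -0.10 ± 0.12 without 1-month replicate 2, called in neither. RPL7, a large subunit protein, was at 558, 161 and 474 CPM at 1 month, 690.4, 672 and 700.5 CPM at 12 months and 894, 470.3 and 336 CPM at 24 months. RPL5, which with RPL11 binds MDM2 and so links ribosome assembly to p53, was at 1024, 384 and 923 CPM, then at 1313, 1136 and 1241 CPM, then at 1425, 696 and 611 CPM. For RPL22 and RPL5 the 3 libraries with high scores were the lowest of all 9. RPL11, its partner, was at 511, 499.9 and 488 CPM, then at 561, 486 and 507 CPM, then at 564, 480.0 and 358 CPM, with all 3 ages overlapping.

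The mean deviation of the 5 members with the highest weights minus that of the 5 with the lowest was 2.43 log2 units in 1-month replicate 2, 0.99 and 1.49 in 24-month replicates 2 and 3, and between -1.30 and -0.47 in the others. As these members were picked from the component itself, the numbers describe it and test nothing. The ratio of large to small subunit counts was 1.42 in 1-month replicate 2 and 1.40 and 1.44 in 24-month replicates 2 and 3, and 1.48 to 1.62 in the other 6 libraries. Several other lists also differed between 24-month replicate 1 and replicates 2 and 3: the 5 plasma cell markers summed to 1909 CPM against 861 and 1118 CPM, the 6 B cell markers to 8.04 against 16.5 and 24.5 CPM, and the 17 elongation factor and other TOP mRNA genes to 31107 against 25440 and 21436 CPM. Single genes of that last list went both ways. TPT1 was at 7650 against 4648 and 2216 CPM and EIF3E at 238 against 82.6 and 97.1 CPM. In contrast, EEF2 was at 3393 against 4106 and 5096 CPM and EEF1G at 628 against 911 and 944 CPM. EEF1D and EIF3F were also higher in replicates 2 and 3. The 10 thymocyte and T cell markers summed to 24.2 against 20.5 and 24.0 CPM. Salivary epithelium markers went both ways: KRT8 was at 437 against 788 and 920 CPM and EPCAM at 455 against 270 and 215 CPM. KRT18, AQP5 and LPO were likewise higher in replicates 2 and 3, and SLC12A2 lower. Within the 1-month group, replicate 2 differed from replicates 1 and 3 in the same directions for the translation genes named here. TPT1 was at 1121 against 3245 and 3577 CPM there, and EEF2 at 2837 against 1513 and 1246 CPM. AQP5 went the other way, being lowest in 1-month replicate 2. The part of other cell types or of RNA quality in the component was not tested.

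**Figure D3:**
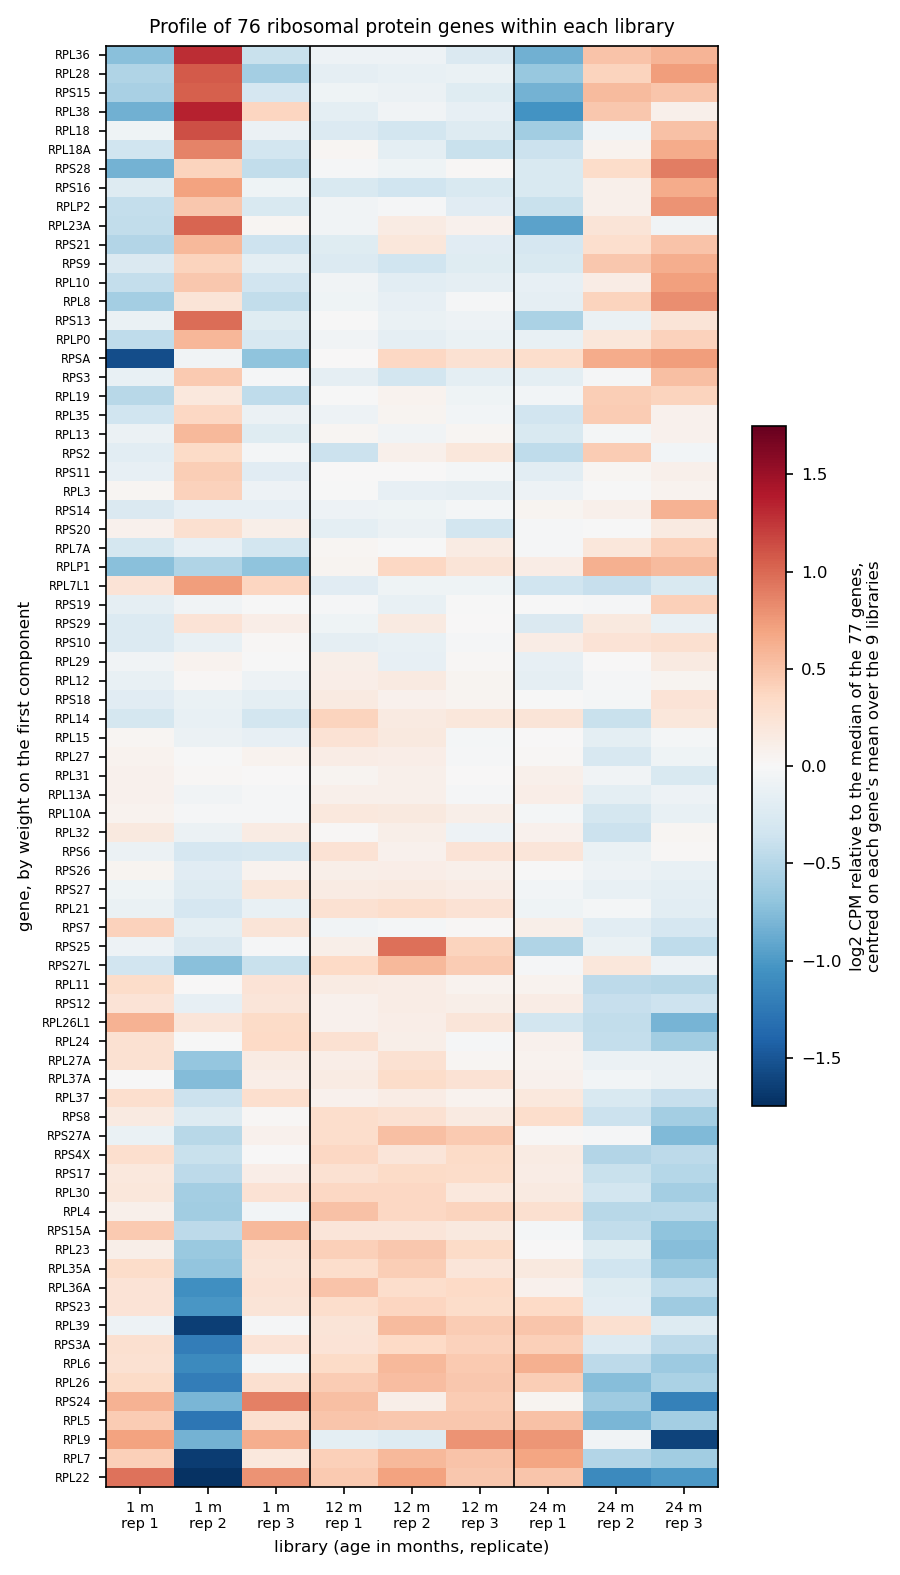
Log2 CPM of 76 of the 77 tested members relative to the family median in the same library and centred on the gene's mean over the 9 libraries (colour), with members in rows by their weight on the first component and libraries in columns by age and replicate. In 1-month replicate 2 and 24-month replicates 2 and 3, the upper rows are mostly red and the lower rows mostly blue.

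Among the stalk proteins, RPLP1 had the largest fitted change at both older ages, and differences between the 3 were not tested. RPLP0, which anchors the stalk, was at 634, 1583 and 715 CPM at 1 month, 1028, 843 and 948 CPM at 12 months and 1041, 1599 and 1401 CPM at 24 months. RPLP2, which pairs with RPLP1, was at 106, 240.1 and 117 CPM, then at 168, 151 and 147 CPM, then at 143, 241 and 301 CPM. In both, 1-month replicate 2 reached into the 24-month range, whereas RPLP1 in that library (567 CPM) stayed below every older library. Log2 fold changes over 1 month were -0.02 ± 0.46 and 0.57 ± 0.55 for RPLP0 and 0.05 ± 0.39 and 0.67 ± 0.51 for RPLP2 at 12 and 24 months. Without 1-month replicate 2 they were 0.48 and 1.11 for RPLP0, both past the threshold, and 0.48 (adjusted p = 0.0265, edgeR) and 1.14 (adjusted p = 0.0523, edgeR) for RPLP2. In the fit of all other 8 libraries RPLP0 (1.00, adjusted p = 0.0143, edgeR) and RPLP2 (1.04, adjusted p = 0.0246, edgeR) were called at 24 months and neither at 12 months.

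Other proteins with known special roles did not pass the test with all 6 libraries. RPS6, the substrate of the S6 kinases, was at 630.4, 676 and 559 CPM at 1 month, 1007, 779 and 953 CPM at 12 months and 1037, 1008 and 844 CPM at 24 months. It did not overlap between 1 month and either older age, with log2 changes of 0.61 ± 0.31 and 0.74 ± 0.42 (adjusted p = 0.186 and 0.246, edgeR). RPS19, mutated in Diamond-Blackfan anaemia, was at 225, 295 and 251 CPM, then at 308, 249 and 298 CPM, then at 331, 399 and 410.3 CPM (log2 0.20 ± 0.28 and 0.68 ± 0.39). Its 24-month libraries lay above all others. RPS27A, which is made as a fusion with ubiquitin, was at 126, 119 and 144 CPM, then at 211, 213 and 222 CPM, then at 182, 216 and 97.9 CPM. Its log2 change was 0.80 ± 0.24 at 12 months (adjusted p = 0.0587, edgeR) and 0.47 ± 0.42 at 24 months, where replicate 3 lay below all 1-month libraries. Without 1-month replicate 2, RPS6 (0.62 ± 0.17, adjusted p = 0.0275, edgeR) and RPS27A (0.69 ± 0.12, adjusted p = 0.00731, edgeR) were higher at 12 months, and RPS19 (0.26 ± 0.15, adjusted p = 0.191, edgeR) was not called. The fit of all other 8 libraries called neither RPS6 nor RPS27A at 12 months. At 24 months it called RPS6 (0.70, adjusted p = 0.0402, edgeR) and RPS19 (0.68, adjusted p = 0.0363, edgeR). Between 12 and 24 months RPS19 was called without 24-month replicate 1 (0.55 ± 0.17, adjusted p = 0.0386, edgeR).

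Paralogues were compared with their parents in their changes only, since levels of different genes also depend on transcript length. RPS27, the parent of RPS27L, was at 105, 116 and 128 CPM at 1 month, 153, 135 and 145 CPM at 12 months and 142, 163 and 120.2 CPM at 24 months. Its log2 changes were 0.37 ± 0.24 and 0.40 ± 0.35 at 12 and 24 months, against 1.16 and 1.06 for RPS27L. RPL7L1, which acts in ribosome assembly, was at 27.9, 48.0 and 30.6 CPM at 1 month, 25.5, 24.2 and 26.4 CPM at 12 months and 24.3, 28.6 and 23.9 CPM at 24 months. Its log2 changes of -0.44 ± 0.31 and -0.36 ± 0.38 were of the other sign than those of RPL7 (0.87 ± 0.46 and 0.63 ± 0.58), and none passed the test. The gap rested in part on 1-month replicate 2, where RPL7L1 was highest and RPL7 lowest: without it the values were -0.20 ± 0.13 and -0.08 ± 0.31 for RPL7L1 and 0.42 ± 0.14 and 0.24 ± 0.44 for RPL7. RPL26L1, nearly identical to RPL26 in protein, was at 10.9, 10.1 and 8.97 CPM, then at 9.33, 8.34 and 9.83 CPM, then at 7.38, 8.43 and 4.71 CPM (log2 -0.07 ± 0.28 and -0.43 ± 0.42). RPL26 gave 0.78 ± 0.38 and 0.37 ± 0.49, from 353, 146 and 341 CPM at 1 month, and without replicate 2 at 1 month 0.40 ± 0.12 and 0.05 ± 0.39.

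The parents RPL3, RPL10, RPL22, RPL36A and RPS4X were not called at either age with all 6 libraries, with log2 changes over 1 month between -0.22 and 0.72. RPL3, which lies close to the peptide-bond centre, was at 936, 1475 and 860.4 CPM at 1 month, 1135, 897 and 977 CPM at 12 months and 1138, 1463 and 1172 CPM at 24 months. RPL10, which is loaded late in large subunit assembly, was at 540.1, 1226 and 575 CPM, then at 859, 689 and 773 CPM, then at 867, 1272 and 1457 CPM. In both, 1-month replicate 2 was above every 12-month library. RPL36A was at 122, 59.6 and 123 CPM, then at 181, 139 and 156 CPM, then at 144, 143 and 92.8 CPM. RPS4X was at 455, 344 and 375 CPM, then at 592, 469 and 560.0 CPM, then at 544, 416 and 333 CPM. Both separated 1 from 12 months without overlap and overlapped at 24 months. RPL36AL is a paralogue of RPL36A that the symbol rule did not take. Its log2 changes were 1.00 ± 0.34 and 0.98 ± 0.45 at 12 and 24 months (adjusted p = 0.0813 and 0.165, edgeR), against 0.72 and 0.45 for RPL36A. Without 1-month replicate 2, RPL10 (0.48 ± 0.15, adjusted p = 0.0457, edgeR) and RPL26 (0.40 ± 0.12, adjusted p = 0.0377, edgeR) were higher at 12 months, while RPS27 (0.31 ± 0.14) and RPL7 (0.42 ± 0.14) were not called. The differences between paralogue and parent were not tested.

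**Figure D4:**
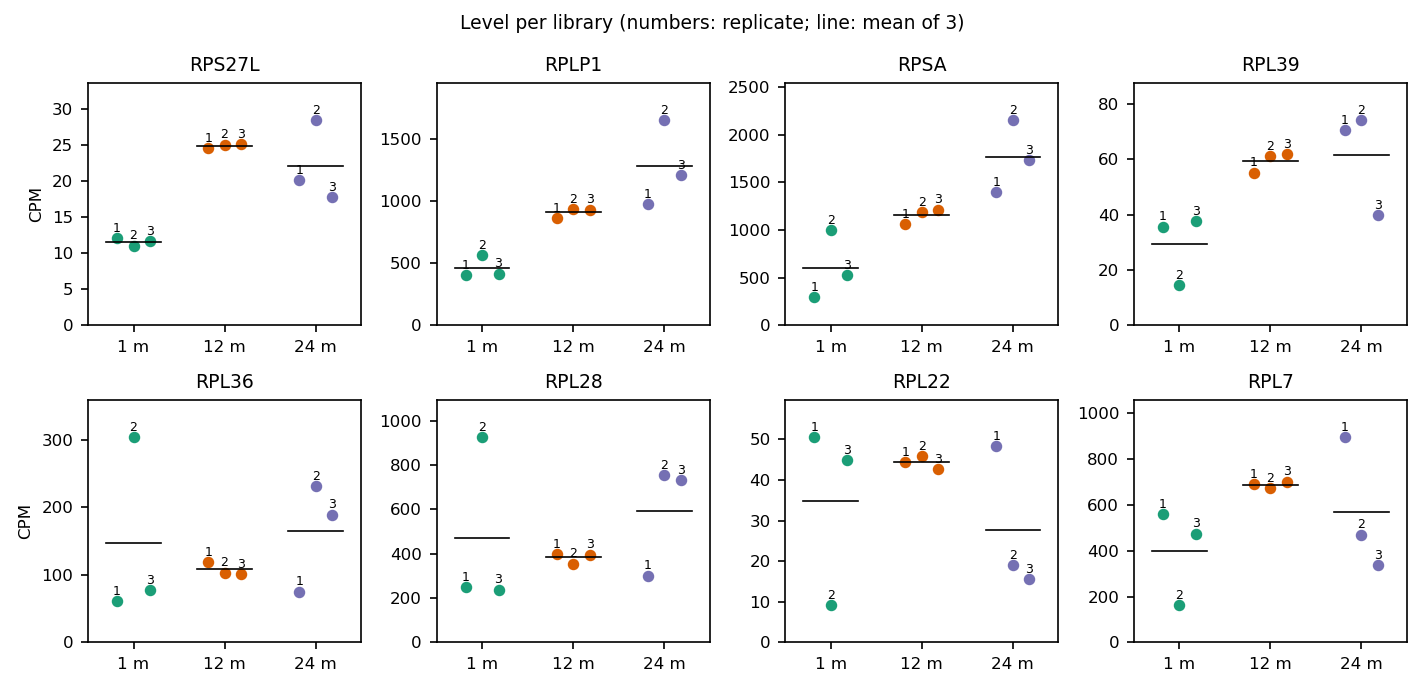
CPM (TMM library sizes) of 8 members in each library by age, points numbered by replicate, with the mean of 3 as a line and the axis from 0. RPS27L and RPLP1 separate 1 month from both older ages in every library, whereas RPL36 and RPL28 are high and RPL22 and RPL7 low in 1-month replicate 2 and 24-month replicates 2 and 3.

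Several members have copies with the same product listed under LOC symbols. Reads may be divided between a member and its copies, so the members' own values are uncertain. Their sequences were not compared. The rule left out 73 such copies, 11 with over 1000 counts in all. LOC102175427, a copy of RPSA, held 36.3% to 69.2% of the counts of gene and copy together. Added up they gave 947, 1662 and 829 CPM at 1 month, 2237, 2136 and 2467 CPM at 12 months and 2222, 3386 and 3531 CPM at 24 months. The sums separated 1 month from both older ages, as RPSA did alone, with log2 changes of 1.04 (adjusted p = 0.124, edgeR) and 1.52 (adjusted p = 0.0907, edgeR). LOC102175871 held 60.1% to 73.1% of the counts of RPS24 and itself. RPS24 alone was at 253, 117 and 309 CPM, then at 298, 194 and 269 CPM, then at 227, 174 and 89.6 CPM, and gene and copy were both lowest in 1-month replicate 2 and 24-month replicates 2 and 3. With copies added, the log2 change of RPS24 over 1 month was 0.48 at 12 months and -0.11 at 24 months. RPS24 alone gave 0.24 and -0.34, and none of these was called. LOC102172558 held 22.0% to 73.8% of the counts of RPS25 and itself. RPS25 alone was at 113, 123 and 119 CPM, then at 161, 256 and 189 CPM, then at 111, 179 and 109 CPM, without overlap between 1 and 12 months. Between 12 and 24 months the log2 change of RPS25 was -0.56 alone and -0.31 with copies added, called in neither.

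The copies of RPS2 and RPL9 were present in some libraries and near 0 in others. LOC108634081, the RPS2 copy, was at 388 CPM in 12-month replicate 1, 353 CPM in 24-month replicate 1 and 503 CPM in 24-month replicate 3, and at 0.926 CPM or less in the other 6 libraries. Where present it made up 29.7% to 33.0% of gene and copy together. LOC102181054, the RPL9 copy, was at 374 and 346 CPM in 12-month replicates 1 and 2 and at 156 CPM in 24-month replicate 3, and at 3.43 CPM or less elsewhere. In those 3 libraries it made up 48.6% to 52.4%. Tested as genes of their own against 1 month, the RPL9 copy was called higher at 12 months (adjusted p = 0.0436, edgeR) though 1 library overlapped the 1-month range, and the RPS2 copy at 24 months (adjusted p = 0.0184, edgeR) without overlap. For the RPS2 copy, 24-month replicate 2 (0.926 CPM) was only just above 1-month replicate 2 (0.857 CPM). RPL9 itself was at 395, 333 and 733 CPM at 12 months, and with the copy at 769.5, 679 and 734 CPM, so the 12-month replicates lay closer together once the copy was added. With copies added, the log2 change of RPL9 at 12 months moved from 0.15 to 0.73 (adjusted p = 0.206, edgeR), and without 1-month replicate 2 RPL9 alone gave -0.23 ± 0.34. RPS27L was again the single member called at 12 months with copies added.

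**Figure D5:**
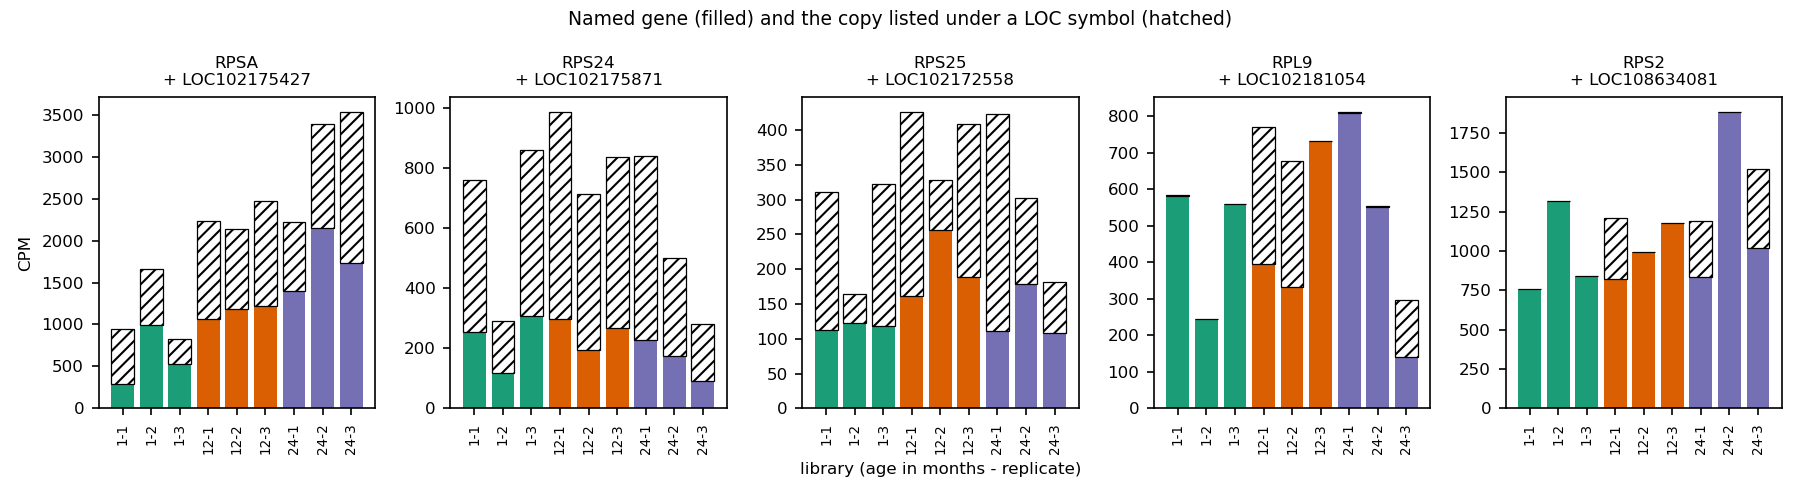
CPM of 5 members (filled, coloured by age) and of their copy under a LOC symbol (hatched, stacked on top) in each library, named by age in months and replicate. The RPS2 and RPL9 copies appear in 3 libraries each, while those of RPSA, RPS24 and RPS25 are present in all 9.

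Other genes of the translation machinery were counted as lists. With all 6 libraries, 6.52% and 7.1% of all genes were higher at 12 and 24 months and 11.7% and 10.4% lower, as given above. Of 4 further ribosomal proteins whose symbols the rule did not take, none was called at any age, and 3 and 1 of them were higher at 12 and 24 months without 1-month replicate 2. FAU, made as a fusion with a ubiquitin-like protein, was at 142, 317 and 188 CPM, then at 157, 138 and 156 CPM, then at 162, 239 and 281 CPM, highest in the same 3 libraries as RPL36. Of 17 elongation factors and other TOP mRNA genes, 2 were higher at 12 months and 0 at 24 months. PABPC1, the poly(A)-binding protein, was at 754 to 952 CPM at 1 month and at 1976 to 2409 CPM at 12 months (log2 1.44 ± 0.33, adjusted p = 0.0303, edgeR). EEF1B2, an exchange factor for EEF1A, was at 68.0 to 92.0 CPM and then at 128 to 181 CPM (log2 0.97 ± 0.26, adjusted p = 0.0457, edgeR). When 1-month replicate 2 was left out, 9 were higher and 2 lower at 12 months, where 21.4% and 22.2% of all genes were, and 4 higher and 2 lower at 24 months, where 14.1% and 14.2% of all genes were. In that fit PABPC1 was at 1.29 ± 0.17 and EEF1B2 at 0.79 ± 0.18 at 12 months, both past the threshold.

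Ribosome biogenesis genes assemble the subunits in the nucleolus. Of 32, 29 were fitted below 0 at 12 months and 31 at 24 months, with medians of -0.70 and -0.63, and 1 in each passed the test. That gene was NOP56, a core protein of box C/D particles, at 59.7, 104 and 61.4 CPM at 1 month and 24.6 to 35.3 CPM later (log2 -1.19 ± 0.33, adjusted p = 0.0472, and -1.34 ± 0.39, adjusted p = 0.0464, edgeR). Without 1-month replicate 2 the medians were -0.27 and -0.17, with 8 and 3 genes lower, where 22.2% and 14.2% of all genes were, and 1 higher in each, where 21.4% and 14.1% were, and NOP56 at -0.92 ± 0.14 and -1.03 ± 0.30. The 8 cell cycle markers summed to 915 to 2866 CPM at 1 month and to 14.2 to 42.9 CPM later, and their part in this was not tested.

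Of 15 genes of the mTOR pathway and of TOP mRNA control, 1 was higher and 1 lower at 12 months, and 1 higher and 2 lower at 24 months. EIF4EBP1, a repressor of translation initiation that mTOR inactivates, was at 16.8 to 28.0 CPM at 1 month, 74.8 to 90.6 CPM at 12 months and 74.4 to 199 CPM at 24 months (log2 1.90 ± 0.27, adjusted p = 0.0103, and 2.71 ± 0.48, adjusted p = 0.0109, edgeR). MYCN, a transcription factor known to drive ribosomal genes, was at 4.97 to 20.6 CPM at 1 month and fell to 0.360 to 0.767 CPM later (log2 -3.98 ± 0.69, adjusted p = 0.0144, and -4.65 ± 0.74, adjusted p = 0.00763, edgeR), and MYC was lower at 24 months (log2 -2.44 ± 0.70, adjusted p = 0.0459, edgeR). MYC and MYCN were both highest in 1-month replicate 2, at 106 and 20.6 CPM. Without that library the list had 5 higher and 2 lower at 12 months and 3 higher and 2 lower at 24 months, beside 21.4% and 22.2% and then 14.1% and 14.2% of all genes. EIF4EBP1 was then at 1.64 ± 0.15 and 2.49 ± 0.46, MYCN at -3.16 ± 0.41 and -3.79 ± 0.61, and MYC at -1.32 ± 0.33 and -1.52 ± 0.48. Of the 77 mitochondrial ribosomal protein genes 1 was higher at 12 months, MRPS21, and 0 at 24 months, with medians of 0.20 and 0.40, against 0.24 and 0.42 for the cytosolic members. Leaving out 1-month replicate 2, 18 were higher and 1 lower at 12 months, and 11 higher and 0 lower at 24 months, where the same shares of all genes were 21.4% and 22.2%, and 14.1% and 14.2%. Between 12 and 24 months none of these lists gave a call.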

How the data were processed

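Per the submitters' processing notes and the study's methods, the authors filtered reads with Bowtie2 2.2.8 against ribosomal RNA, mapped what remained with TopHat2 2.1.1 and built transcripts with Cufflinks. The genome build is not given in the sources used here. The authors deposited RSEM's expected counts of known and new transcripts, with no normalization. RSEM divides reads between similar transcripts, so counts of near-identical copies are estimates.

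Gene symbols came from the table and, for known transcripts, from RefSeq of ARS1.2 by gene identifier (99.9% of 42686 known identifiers matched). Counts were summed per gene. The 432 new transcripts without a symbol, 0.244% to 5.99% of a library, were left out of library sizes and tests. Of the members' 124 transcripts 19 were new, and 55 members had 1 transcript.

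Summed expected counts were rounded and each pair of ages was fitted with its 6 libraries in edgeR 4.0.16 (R 4.3.3): filterByExpr, TMM, then the quasi-likelihood F-test (glmQLFit, glmQLFTest). P-values were adjusted by Benjamini-Hochberg over the 14625, 14699 or 14081 genes of the comparison, and calls were made below 0.05. Each library came from a different goat. CPM used TMM sizes over the 9 libraries, and profiles used log2 values with a pseudocount of 0.5. Log2 fold changes are the older age over the younger. The test was tested on simulated data.

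Members and lists were chosen with earlier results of these data known. In each comparison the 5 members with the highest and the 5 with the lowest fitted change, the paralogues with their parents, the proteins with special roles and the 2 genes of lowest p in each list were eligible for naming, and the members that lead the first component were added after their values were seen. Some genes that the rule takes are not reported here. Alternatives were DESeq2's size factors, upper-quartile normalization, total counts with and without the 100 most abundant genes, TMM without the members, no filter, DESeq2 1.42.0, edgeR's exact test, all 9 libraries in one fit, the replicate number as a block, LOC copies added, RefSeq transcripts alone and leaving out each library.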

Additional observations from a re-analysis of the deposited data

Results flagged for a closer look

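The copies of RPS2 and RPL9, which are listed under LOC symbols and are not counted among the members, gave signal far above the level of 3 counts in 3 libraries each. LOC108634081 (RPS2) reached 503 CPM and LOC102181054 (RPL9) reached 374 CPM, both at the older ages, against at most 0.857 and 1.55 CPM at 1 month. The remaining older libraries had at most 0.926 and 3.43 CPM, so goats of the same age differed in this signal.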

How the results depend on the processing

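With 1 library left out, members called higher ranged from 0 to 29 (1 to 12 months), from 0 to 11 (1 to 24 months) and from 0 to 24 (12 to 24 months), and members called lower from 0 to 4 in the last. Medians then ranged from 0.16 to 0.36, 0.31 to 0.59 and -0.003 to 0.17. Members called higher at 12 months, 1 as reported, were 0 with total counts alone, with the replicate block and with RefSeq transcripts alone, 2 without the 100 most abundant genes and with the exact test, and 4 with DESeq2 and in the 8-library fit. At 24 months, 0 as reported, they were 1 without the 100 most abundant genes, 2 with DESeq2 and the exact test, 3 with all 9 libraries and 22 in the 8-library fit, and 1 was lower with DESeq2. Total counts alone turned the medians to -0.22, -0.24 and -0.10. The members' median minus that of all genes stayed at 0.26, 0.44 and 0.07 (0.26, 0.43 and 0.08 as reported). The summed share was 4.03% and 3.64% of the plain total at 1 and 24 months (3.27% and 4.31% of TMM size), and 4.82%, 6.09% and 6.55% without the 100 most abundant other genes. At 12 months RPLP0 and RPL36 ranged from -0.28 to 0.48 and from -0.81 to 0.65 with 1 library left out, reversed without 1-month replicate 2. With the replicate block RPS27L missed the threshold (adjusted p = 0.103, edgeR; 0.000335 to 0.114 over all its alternatives). Same-numbered libraries correlated in their deviations at -0.22 to 0.40, so the numbers were not taken to pair the goats. For 53 named genes, 158 results kept their side of the threshold in 2787 alternatives, gained it in 150, lost it in 62 and changed sign with a call in 2; counting values called in neither, 135 differed in sign, 34 of them with total counts alone and 14 without 1-month replicate 2. The causes were not tested. RPL10L and RPL3L had too few counts for the edgeR test, and reads of RPL22L1 and RPL17 lay under LOC symbols.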
